A study of Mus musculus with 4 samples.

Results

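Xcl1 encodes the chemokine XCL1 and Xcr1 encodes its receptor. The 2 genes were taken by their symbols out of 31053 in 4 droplet single-cell RNA-seq libraries of colon leukocytes. The pair was chosen by its measured levels across cell types and groups in these same libraries. The p-values given below for Xcl1 and Xcr1 between the groups are therefore descriptive and are no independent test. Wild-type (WT) mice of the strain C57BL/6 gave the cells, which were sorted on the surface protein CD45. In the 2 stress libraries the mice had been held in restraint each day for 7 days, a rodent model of psychological stress, and in the 2 control libraries they had received the control treatment. Animal age and the number of animals per library were not given in the sources used here, and p-values therefore speak only for the spread among these 4 libraries, which may be technical.

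Cells were counted where a barcode held at least 500 unique molecular identifiers (UMIs, 1 per captured transcript) and at most 10% mitochondrial UMIs. Control 1 kept 2562 cells, control 2 kept 5443, stress 1 kept 8333 and stress 2 kept 4138. Among these 20476 cells Xcl1 held 6057 UMIs in 987 cells and Xcr1 held 360 UMIs in 120 cells, and 2 cells held both. Median depth ran from 2174 UMIs per cell in stress 1 to 4547 in stress 2, with both controls in between. Between 11.1 and 26.0% of barcodes exceeded the mitochondrial limit, most in stress 2. Any pair of libraries shared between 3 and 12 cell barcodes. Ptprc, the gene of CD45, had a UMI in 67.5 to 84.8% of cells, and fibroblast-gated cells, which should lack CD45, made up 8.51% of control 1 and at most 0.0919% of the other libraries.

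XCL1 is made mainly by natural killer (NK) cells, CD8 T cells and other innate-like lymphocytes, and is released quickly on activation. XCR1 is a G-protein-coupled receptor that in mice marks conventional type 1 dendritic cells (cDC1), which take up dead cells and present their antigens on MHC class I to CD8 T cells. The pair is known for bringing cDC1 and lymphocytes together, and in the gut for the upkeep of intestinal T cells.

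Both genes are protein coding and lie on the minus strand of GRCm38 (mm10). Xcl1 (ENSMUSG00000026573) spans chr1:164931644-164935527 in 3 exons, and Xcr1 (ENSMUSG00000060509) spans chr9:123852315-123862029 in 2 exons. A plus-strand gene, Gm20743, covers the whole Xcl1 locus in GENCODE vM21 and is not among the genes of the deposited tables. Use of strand in the counting was not given in the sources used here, so reads from Gm20743 and Xcl1 may not have been told apart. The 250 bases before each RefSeq start (GRCm38.p6; Xcl1 at chr1:164935523-164935772 and Xcr1 at chr9:123862030-123862279, both minus strand) are shown because Xcl1 was read mainly from NK, gamma-delta and CD8 T cells and Xcr1 mainly from cDC1. Capitals mark the RUNX motif AACCACA, the T-box half-site GGTGTGA and the ETS motif AGGAAGT, binding motifs of factor families that act in NK and CD8 T cells.
Xcl1 promoter: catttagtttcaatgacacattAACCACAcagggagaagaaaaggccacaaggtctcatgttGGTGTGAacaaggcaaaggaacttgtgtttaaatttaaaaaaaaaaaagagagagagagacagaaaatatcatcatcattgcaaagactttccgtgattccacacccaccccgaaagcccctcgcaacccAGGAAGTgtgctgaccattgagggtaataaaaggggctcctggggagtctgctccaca
Xcr1 promoter: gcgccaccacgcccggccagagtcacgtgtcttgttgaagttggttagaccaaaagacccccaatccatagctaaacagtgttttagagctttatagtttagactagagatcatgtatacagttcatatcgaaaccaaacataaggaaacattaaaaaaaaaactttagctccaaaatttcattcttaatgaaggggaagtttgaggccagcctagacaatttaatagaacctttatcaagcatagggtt
Read on either strand, AACCACA lies 228 bases before the Xcl1 start, GGTGTGA 188 bases before it and AGGAAGT 58 bases before it. They occur in 4.40, 3.33 and 7.69% of the 32851 RefSeq promoter windows of this length, and do not overlap each other. None of these letters occurs in the Xcr1 window, nor does the IRF motif (GAAA, any 2 bases, GAAA; 2.98% of windows), the AP-1 motif TGANTCA (6.75%) or the NFAT motif TGGAAA (18.6%) in either window. The TATA box TATAAA (12.4% of windows) is found on the other strand of the Xcr1 window, 160 bases before the start, and the related AATAAA (18.1%) 33 bases before the Xcl1 start. A match is a description of letters and not of a bound site, and the motifs were chosen with the sequences in view.

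Cells were assigned by transcripts, with neither Xcl1 nor Xcr1 in any rule, to 14 gates, and 15074 cells met the rule of 1 gate alone. The NK gate asked for 2 or more NK genes (among them Ncr1, Klrb1c and Eomes) and no CD3 transcript, so it can hold type 1 innate lymphoid cells too. The CD8 gate asked for CD3, an alpha-beta receptor constant gene and Cd8a or Cd8b1, the gamma-delta gate for Trdc and CD3, and the cDC1 gate for 4 or more genes with Clec9a, Tlr3 or Cadm1 among them. These rules gave 200 NK, 1299 CD8, 216 gamma-delta and 84 cDC1 cells. The names were compared with genes outside the rules. Nkg7, of cytotoxic granules, had a UMI in 87.0 to 95.7% of NK cells and 0 of cDC1. It was also found in 72.1 to 90.4% of CD8 cells and 71.8 to 81.6% of gamma-delta cells. Nkg7 thus set NK cells apart from cDC1 but was not particular to them among lymphocytes. Tcrg-C1, a gamma chain gene, was found in 53.4 to 69.2% of gamma-delta cells. In CD8 cells it was found in 3.42 to 30.1% and in NK cells in 2.17 to 12.5%, which bore out the name of gamma-delta cells. H2-Aa, of MHC class II, was found in 100% of cDC1 but is not particular to them. In controls 1 and 2 and stress 1 and 2, Ifi205 was found in 19 of 20, 9 of 12, 9 of 10 and 10 of 11 cDC1 with Xcr1. Clnk was found in 0 of 20, 3 of 12, 0 of 10 and 4 of 11 of these cells. In cDC1 without Xcr1, Ifi205 was found in 5 of 6, 6 of 10, 4 of 11 and 4 of 4. Clnk was found there in 2 of 6, 0 of 10, 0 of 11 and 0 of 4. Free RNA was present, since Igha, an antibody gene, had a UMI in 40.6 to 96.9% of NK cells.

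Levels are given as CPM, the UMIs of a gene in all cells of a gate and library, scaled to an equal total for each sum. NK cells held the highest level of Xcl1, at 2544 and 2024 CPM in controls 1 and 2 and 1497 and 1652 CPM in stress 1 and 2. All 4 libraries placed NK above gamma-delta and CD8 cells. Gamma-delta T cells followed at 959, 1385, 427 and 598 CPM, and CD8 T cells at 694, 144, 190 and 392 CPM. The ranges of gamma-delta and CD8 cells overlapped across libraries, but within each library gamma-delta cells were higher. CD4 T cells held between 1.70 and 20.3 CPM. In ILC3, type 3 innate lymphoid cells, 2 of 27 cells held Xcl1, with 7 and 22 UMIs. cDC1, cDC2 and ILC2 held 0 Xcl1 UMIs in every library, as did plasmacytoid dendritic cells in the 3 libraries that held such cells. In the 84 cDC1 this allows, per library, a share of cells with a UMI of up to 11.5 to 20% (3 cells of the total, counting error only).

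The receptor had the opposite distribution. cDC1 held Xcr1 at 222, 139, 282 and 363 CPM in the same order of libraries, and the next gate with UMIs in at least 3 libraries, cDC2, a sister type that responds mainly through CD4 T cells, held 5.71, 0, 9.80 and 5.99 CPM from at most 4 UMIs. NK cells held 0 Xcr1 UMIs, and CD8 and gamma-delta cells 1 UMI each in all 4 libraries. Among dendritic cells, CCR7 DC, the migratory state, held 1 Xcr1 UMI in 39 cells and plasmacytoid cells 0 in 48. B and plasma cells, which should lack both genes, set the background. They had an Xcl1 UMI in 0.0468 to 0.196% of cells and an Xcr1 UMI in 0 to 0.311%, at median depths from 1744 UMIs (B cells, stress 1) to 24418 UMIs (plasma cells, stress 2). Levels across gates are a description and were not tested, since the pair was chosen with this pattern known.

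**Figure D1:**
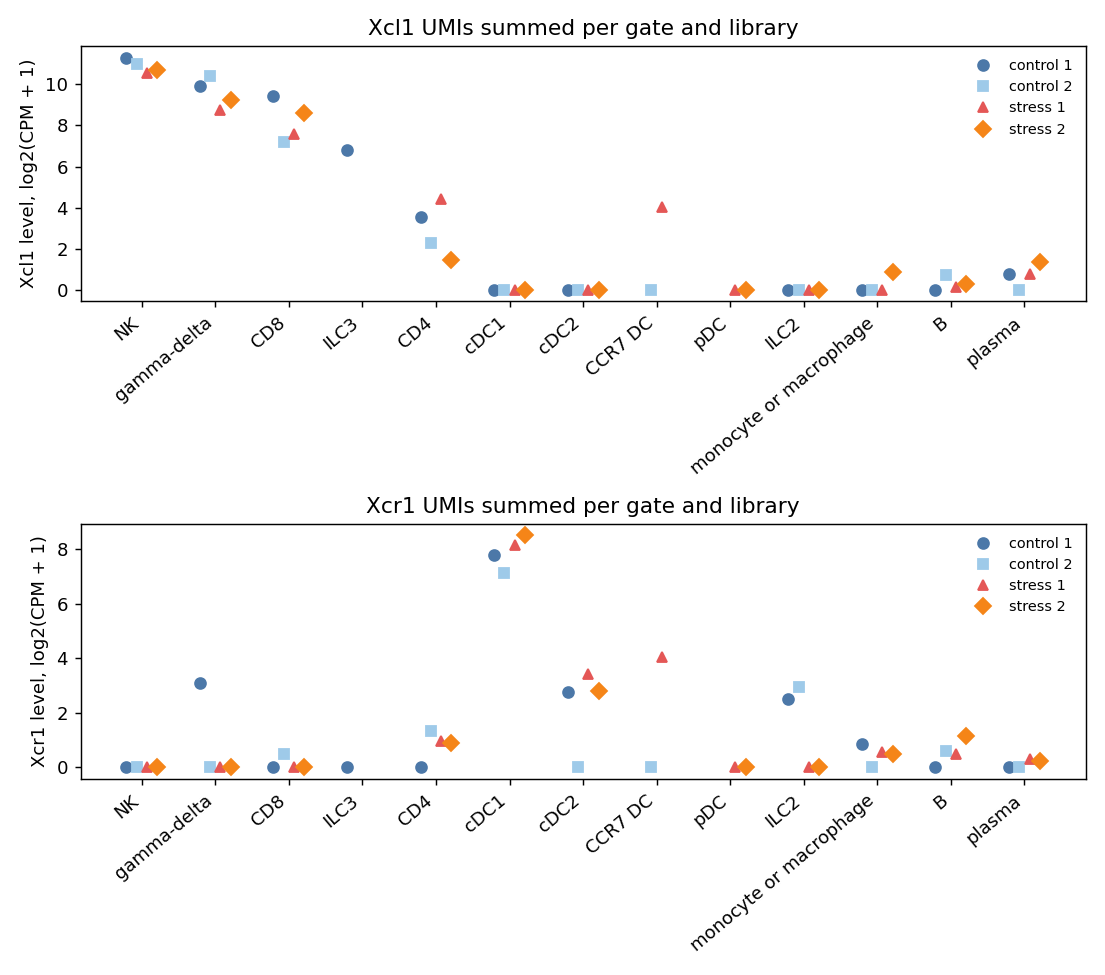
Levels of Xcl1 (top) and Xcr1 (bottom) as log2(CPM + 1) in 13 gates (x axis), 1 symbol per library, for sums of at least 10 cells. Xcl1 is highest in NK cells at 1497 to 2544 CPM and at 0 in cDC1, and Xcr1 is highest in cDC1 at 139 to 363 CPM and at 0 in NK cells.

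The genes whose level ran most like that of Xcl1 over 46 gate and library sums from 14 gates, by Pearson's r of log2(CPM + 1), were Klrc1 (0.94), Samd3 (0.94), Klrb1c (0.93), Cd160 (0.93) and Crtam (0.93). Klrc1 encodes the receptor NKG2A and Cd160 an activating receptor of NK and intraepithelial T cells. Klrb1c is one of the genes of the NK gate. Most like Xcr1 were A530099J19Rik (0.89), Gpr33 (0.88), Sept3 (0.83), Ppt1 (0.80) and Barx2 (0.80). Ppt1, a lysosomal thioesterase, stood at 775 CPM in cDC1 and at most 142 CPM in any other gate on average, while Gpr33 averaged 26.8 CPM in cDC1. The sums share libraries and free RNA, so r carries no test.

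The first question was whether restraint stress went with a different Xcl1 level in NK cells. Both stress libraries lay below both controls, with 2284 ± 368 CPM in controls and 1575 ± 110 under stress (SD, n = 2). The 4 libraries rested on 53, 69, 46 and 32 NK cells with 432, 481, 182 and 279 Xcl1 UMIs. The log2 change was -0.50 (SE 0.20), and it missed the threshold of 0.05 with an edgeR adjusted p of 0.582 (unadjusted p = 0.0175). Among the 2666 genes tested in NK cells 19.2% had both stress libraries below both controls, while 0.188% passed the test in either direction.

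Most NK cells carried the transcript in either group. An Xcl1 UMI was found in 84.9, 84.1, 80.4 and 84.4% of NK cells, so the groups overlapped. Positive cells held 9.60, 8.29, 4.92 and 10.3 Xcl1 UMIs each on average, lowest in stress 1, the shallowest library. With each cell thinned to 1000 UMIs, which left out 3 cells, all from control 2, the shares were 66.0, 71.2, 54.3 and 65.6%. The controls averaged 68.6% ± 3.66 and the stress libraries 60.0% ± 7.97 (SD, n = 2; two-sided exact permutation p = 0.333, the smallest that 2 against 2 libraries allow). At this depth stress 2 and control 1 differed by less than a percentage point. With each cell thinned to 1500 UMIs instead, which left out 5 cells of control 2, 3 of stress 1 and 1 of stress 2, the shares were 84.9, 81.2, 62.8 and 64.5%, with 83.1% ± 2.58 in controls and 63.7% ± 1.22 under stress (SD, n = 2; two-sided exact permutation p = 0.333). Stress minus control was thus -8.64 percentage points at 1000 UMIs and -19.4 at 1500, without overlap at either depth. Each depth was a single random draw, and without thinning the difference was -2.08 points, with overlap.

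Gamma-delta T cells showed the same direction at a greater distance. Control levels were 959 and 1385 CPM and stress levels 427 and 598 CPM, without overlap, from 39, 58, 87 and 32 cells. The mean was 1172 ± 302 CPM in controls and 513 ± 121 under stress (SD, n = 2), a log2 change of -1.18 (SE 0.29, edgeR adjusted p = 0.670, unadjusted p = 0.00122). Of 2864 genes tested in gamma-delta cells 0.0349% passed and 18.6% had both stress libraries below both controls. Without control 1 the change was -1.47 and crossed the threshold, and without control 2 it was -0.86 and did not. In each of these fits the lone control was assumed to vary like the stress libraries.

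The share of gamma-delta cells with an Xcl1 UMI was 53.8 and 51.7% in controls and 27.6 and 43.8% under stress. At 1000 UMIs per cell, which left out 1 cell of control 2 and 5 of stress 1, the shares were 48.7, 38.6, 14.6 and 31.2%, on average 43.7% ± 7.16 and 22.9% ± 11.7 (SD, n = 2; two-sided exact permutation p = 0.333). Stress 1 was lowest and its counting interval, 7.80 to 24.2% (95%, Clopper-Pearson), lay below those of both controls at this depth. The interval of stress 2, 16.1 to 50%, overlapped that of either control. At 1500 UMIs per cell the shares were 45.9, 40, 26.7 and 35.5%, and the interval of stress 1, 17.1 to 38.1%, overlapped those of both controls. Stress minus control was -20.7 percentage points at 1000 UMIs and -11.9 at 1500, without overlap of the shares at either depth.

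CD8 T cells gave no such separation. The 4 levels of 694, 144, 190 and 392 CPM put the controls on both sides of the stress libraries. The log2 change was -0.55 (SE 0.82, edgeR adjusted p = 0.890). It turned to 0.82 without control 1 and became -1.29 without control 2, and neither passed (edgeR adjusted p = 0.238 and 0.424). Of 7682 genes tested 0% passed in edgeR, 627 (8.16%) had an unadjusted p under 0.05 and DESeq2 called 3. At 1000 UMIs per cell an Xcl1 UMI was found in 33.0 and 7.32% of control CD8 cells and in 9.73 and 19.4% of stress CD8 cells, so control 1 was highest and control 2 lowest.

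Whether NK cells differed from the T cells in their response was tested with the library as a block. The NK change minus the gamma-delta change was 0.67 (SE 0.28, edgeR adjusted p = 1), and minus the CD8 change -0.25 (SE 0.66, edgeR adjusted p = 0.992). The second value was -1.17 without control 1, which crossed the threshold, and took the opposite sign without control 2 (0.60), which did not cross it. Each of these fits rests on a lone control, so the call depended on which control was kept. With all 4 libraries no difference between the cell types in their response was detectable.

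**Figure D2:**
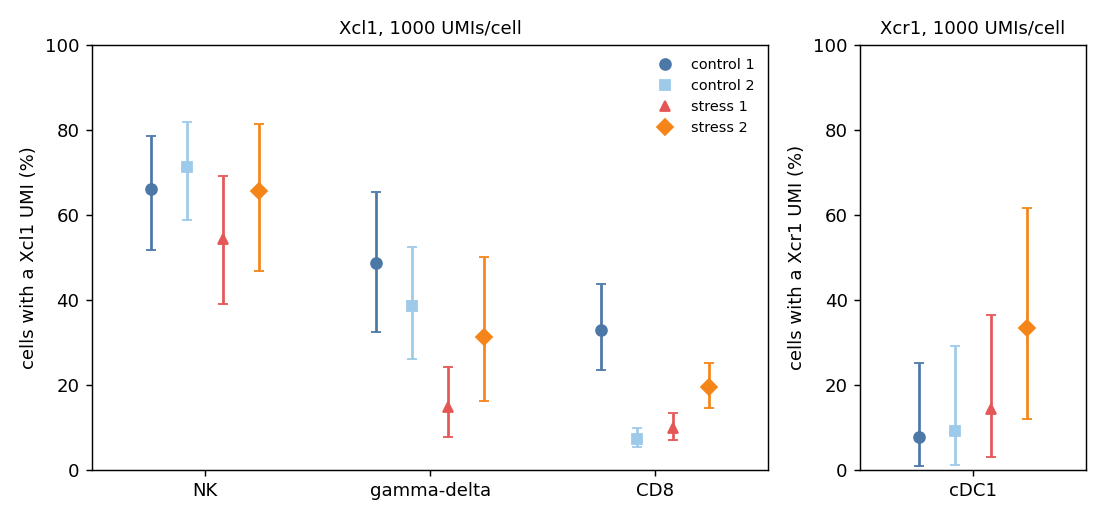
Share of cells (%) with an Xcl1 UMI in NK, gamma-delta and CD8 cells (left) and with an Xcr1 UMI in cDC1 (right), each cell thinned to 1000 UMIs, 1 symbol per library with its 95% Clopper-Pearson interval, which covers counting error only. Xcl1 shares in gamma-delta cells are 48.7 and 38.6% in controls and 14.6 and 31.2% under stress, and in CD8 cells the controls are the highest and the lowest library.

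Within CD8 cells Xcl1 was highest where no transcript of the CD8 beta chain was detected. Cd8b1 encodes the beta chain of the conventional CD8 coreceptor. CD8 cells without a Cd8b1 UMI held 1258, 758, 353 and 574 CPM of Xcl1, and those with one 189, 34.0, 123 and 214 CPM. In every library the first was above the second. In cells without Cd8b1 both controls lay above both stress libraries, which the whole CD8 gate did not show. The share of all genes with this order was not counted in these cells, so the order cannot be read as particular to Xcl1. Cells with Cd8b1 made up 82.4% of CD8 cells in control 2 and 46.7, 70.0 and 48.1% in control 1, stress 1 and stress 2, so the make-up of the gate moved with its Xcl1 level, and its part in that level was not tested. This split, and those of gamma-delta and NK cells given next, were chosen after values were seen and were not tested.

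At 1000 UMIs per cell, CD8 cells with an Xcl1 UMI had a UMI of Cd160 in 35.1 to 47.5% of cells, against 3.36 to 20.7% of CD8 cells without Xcl1. Ccl5, an effector chemokine, Nr4a1, an early response gene of antigen receptor signalling, Cd7 and Itgae, the integrin that binds epithelial cadherin, were likewise more frequent beside Xcl1 in 4 of 4 libraries. Cd8b1 was less frequent in 4 of 4, at 5 to 24.3% against 27.9 to 51.7%. These are descriptions of cells within libraries with no test.

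Gamma-delta cells divided in a similar way. Those with a UMI of an NK gene (Ncr1, Klrb1c, Klre1, Eomes or Klra7) held 1532, 1748, 743 and 912 CPM of Xcl1, and those without 490, 1084, 170 and 320 CPM. Both stress libraries were below both controls in either fraction. In the whole gamma-delta gate 18.6% of all genes tested had this order, and the share within the fractions was not counted. The same list of genes was counted beside Xcl1 in CD8, gamma-delta and NK cells, and those with 1 direction in 4 of 4 libraries are named. In gamma-delta cells Cd160 was more frequent beside Xcl1, and Gzma, Lef1 and Prf1 were less frequent. In NK cells Cd160, Ccl3 and Gzmb were more frequent beside Xcl1 and Tnf was less frequent. For Cd160 in NK cells of control 2 the shares were nearly equal, at 15.2 against 15%.

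NK cells were split by 6 markers. Those with a UMI of Eomes, a transcription factor of conventional NK cells and one of the gate genes, held 1447, 1721, 1470 and 639 CPM of Xcl1, and those without 2751, 2148, 1506 and 2182 CPM. In CPM Xcl1 was thus lower beside Eomes in 4 of 4 libraries, by little in stress 1, and in either fraction the groups overlapped. Cells with Gzma, encoding granzyme A, were lower as well in 4 of 4, at 2121, 1678, 1307 and 1009 CPM against 2597, 2224, 1621 and 2101 CPM without. Cells with Tmem176a or Tmem176b were higher in 4 of 4, at 2641, 2085, 1550 and 2418 CPM against 2213, 1968, 1443 and 582 CPM, with the widest gap in stress 2. The splits by Itga1, an integrin of tissue-resident cells, by Gzmb and by Cd7 did not have 1 direction in all libraries. With Itga1 the levels were 2565, 2058, 1255 and 1565 CPM, and without it 2535, 2010, 1574 and 1692 CPM. The fractions with Eomes or Gzma rest on 5 to 28 cells per library. A single NK cell of stress 2 held 64 of its 279 Xcl1 UMIs. The share of cells with an Xcl1 UMI did not follow the CPM beside Eomes. It was 100, 85, 88.9 and 80% with Eomes against 83.0, 83.7, 78.4 and 86.4% without, lower only in stress 2.

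**Figure D3:**
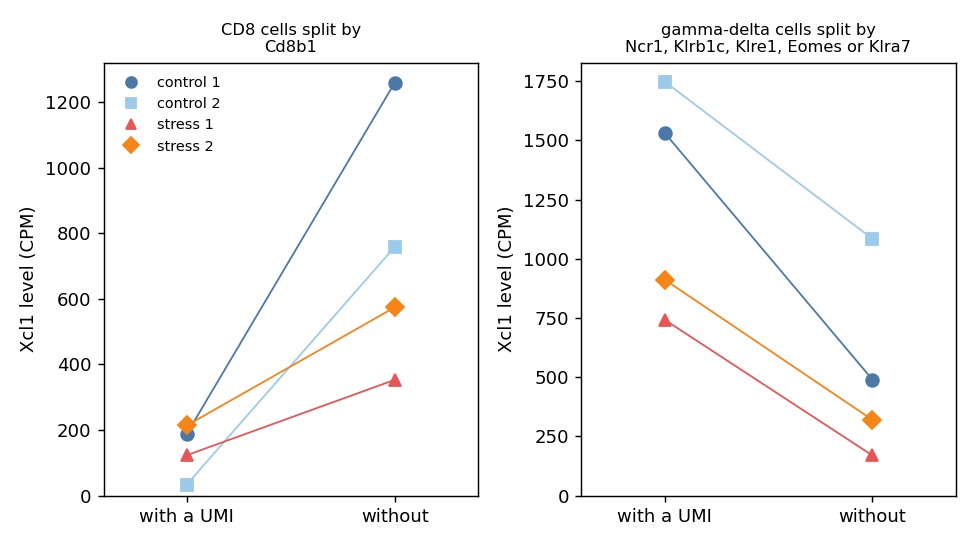
Xcl1 level (CPM) of CD8 cells with and without a UMI of Cd8b1, and of gamma-delta cells with and without a UMI of 5 NK genes, 1 line per library. CD8 cells without Cd8b1 hold 353 to 1258 CPM and those with it 34.0 to 214 CPM, and gamma-delta cells with an NK gene are higher in each of the 4 libraries.

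Over all kept cells Xcl1 stood at 112 and 101 CPM in controls and at 30.5 and 43.6 CPM under stress, 106 ± 7.54 against 37.0 ± 9.22 (SD, n = 2), with no overlap. In such whole-library sums fewer Xcl1-making cells and less Xcl1 per cell cannot be told apart. The log2 change was -1.31 (SE 0.27, edgeR adjusted p = 0.733), and it passed in DESeq2 (adjusted p = 0.00611). With single libraries left out it ran from -1.66 to -1.04. With all libraries 0% of the 13241 genes tested passed in edgeR and 872 (6.59%) had an unadjusted p under 0.05. DESeq2 called 132, and 34.5% had both stress libraries below both controls. Plasma cells, which hold many UMIs per cell, were 3.69% ± 2.90 of control cells and 9.39% ± 2.40 of stress cells (SD, n = 2), and their part in the lower Xcl1 share was not tested. Xcr1 stood at 7.01, 3.32, 2.48 and 3.33 CPM, with overlap (log2 change -0.63, edgeR adjusted p = 0.829), and the change was 0.055 without control 1.

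Split by source, NK cells gave 34.4, 23.9, 5.37 and 7.67 of the Xcl1 CPM of controls 1 and 2 and stress 1 and 2. CD8 cells gave 20, 17.8, 5.93 and 13.5, and gamma-delta cells 10.2, 14.8, 2.83 and 2.42. Each of these parts was lower in both stress libraries than in both controls. Cells that met no gate gave 44.4, 41.7, 15.5 and 18.3. NK, CD8 and gamma-delta cells together held 57.8, 55.9, 46.3 and 54.1% of Xcl1 UMIs, and with the ungated cells 96.0 to 97.6%. The largest ungated source was cells with CD3 but no CD4, CD8 or Trdc transcript, which held 21.3, 21.7, 26.3 and 17.7% of Xcl1 UMIs. Cells with CD3 and Trdc that failed another condition of the gate held 6.19 to 11.0%. Ungated cells with the B cell transcripts Cd79a or Ms4a1, whatever their other transcripts, held 3 to 11.2%.

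**Figure D4:**
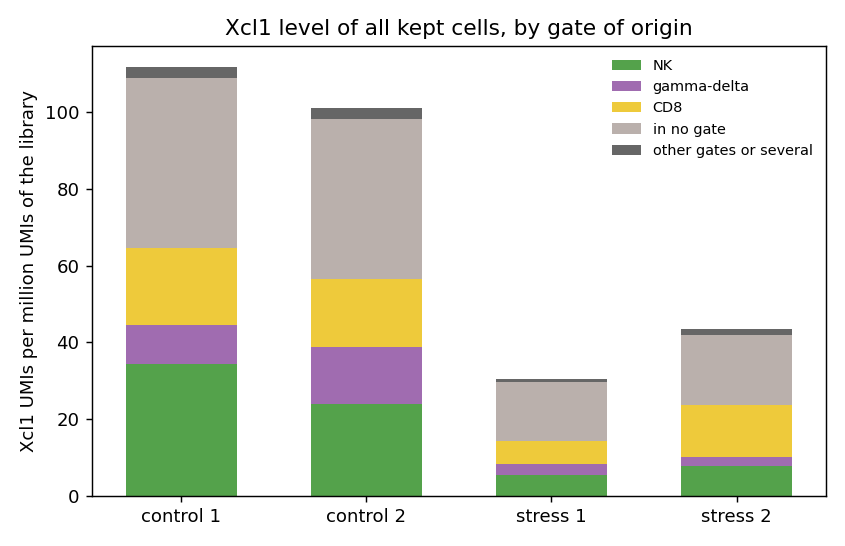
Xcl1 level of all kept cells of each library (CPM, y axis), stacked by the gate of the cell they came from. The bars reach 112 and 101 in controls and 30.5 and 43.6 in stress libraries, and the NK part is 34.4 and 23.9 against 5.37 and 7.67.

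Of all kept cells, 1.67% ± 0.566 were NK cells in the control group and 0.663% ± 0.156 in the stress group (SD, n = 2), without overlap (two-sided exact permutation p = 0.333). Gamma-delta cells made up 1.29% ± 0.323 and 0.909% ± 0.191, and cDC1 0.710% ± 0.432 and 0.307% ± 0.0781, both without overlap and with the same exact permutation p. CD8 cells, at 7.17% ± 5.06 and 5.19% ± 0.834, overlapped. Shares without overlap were common among the gates and not particular to these cells. They were also seen in the ILC2, ILC3, CCR7 DC, plasmacytoid dendritic, plasma and fibroblast gates. The CD4, cDC2, monocyte or macrophage and B gates overlapped. The ratios of ligand to receptor cells overlapped between the groups. There were 2.04 and 3.14 NK cells per cDC1 in controls and 2.19 and 2.13 under stress. Cells with an Xcl1 UMI numbered 8.13 ± 2.04 per cell with an Xcr1 UMI in controls and 8.36 ± 0.811 under stress (SD, n = 2; two-sided exact permutation p = 1).

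In cDC1 the levels of the receptor lay in the other direction from those of the ligand in NK and gamma-delta cells. Xcr1 stood at 222 and 139 CPM in controls and at 282 and 363 CPM under stress, so both stress libraries were above both controls. The mean was 180 ± 58.8 CPM against 323 ± 57.2 (SD, n = 2), from 26, 22, 21 and 15 cells with 62, 28, 41 and 88 UMIs. In each stress library 1 cell held a large part of these UMIs, 14 of 41 in stress 1 and 31 of 88 in stress 2, against 7 of 62 and 4 of 28 in controls. With the highest cell of each library left out, which was added after seeing the data, the levels were 208, 130, 198 and 270 CPM, so the groups overlapped, and the log2 change was 0.41 (edgeR adjusted p = 0.909). With all cells the log2 change of 0.78 (SE 0.31) did not pass (edgeR adjusted p = 0.663, unadjusted p = 0.0245). Of 2977 genes tested in cDC1 0.269% passed and 20.1% had both stress libraries above both controls. Without control 2 the change was 0.46 and without control 1 it was 1.22, and neither passed (edgeR adjusted p = 0.997 and 0.482).

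The share of cDC1 with an Xcr1 UMI did not separate the groups at full depth, at 76.9, 54.5, 47.6 and 73.3%. At 1000 UMIs per cell it was 7.69, 9.09, 14.3 and 33.3%, on average 8.39% ± 0.989 in controls and 23.8% ± 13.5 under stress (SD, n = 2; two-sided exact permutation p = 0.333). The direction of the group difference was thus reversed by thinning, -5.26 percentage points before and 15.4 after, and these shares rest on 2, 2, 3 and 5 cells. At 1500 UMIs per cell the difference was 7.51 points, from shares of 23.1, 23.8, 28.6 and 33.3%. Per positive cell the mean was 3.1, 2.33, 4.1 and 8 Xcr1 UMIs, highest in stress 2, whose cDC1 were deepest at a median of 15512 UMIs.

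cDC1 without an Xcr1 UMI were shallower in every library and met fewer conditions of the gate. Their median was 6.5, 6, 4 and 4.5 gate genes against 8, 7, 7 and 8 in cells with Xcr1. Naaa, a lysosomal hydrolase and one of the gate genes, had a UMI in 52 of 53 cells with Xcr1. Cd209a, a gene of cDC2, had a UMI in 0 cDC1 with Xcr1, in 0 of the control cDC1 without it, and in 6 of 11 and 2 of 4 such cells of stress 1 and 2. This cDC2 gene thus moved with the groups inside the gate, and its part in the Xcr1 level was not tested. With a stricter cDC1 gate the change was 0.95 (edgeR adjusted p = 0.309). Cells in no gate but with 4 or more cDC1 genes held a further 22.7, 28.4, 21.4 and 7.44% of Xcr1 UMIs.

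Over all dendritic cells together (77, 70, 130 and 70 cells) Xcr1 stood at 96.5, 56.4, 63.7 and 121 CPM, with overlap. The log2 change was 0.12 (SE 0.37, edgeR adjusted p = 0.963), and it was -0.27 without control 2 and -0.41 without stress 2. Of 6179 genes tested 0.566% passed. cDC1 were 26 of 77 and 22 of 70 dendritic cells in controls and 21 of 130 and 15 of 70 under stress, so a smaller part of the dendritic cells was cDC1 under stress in both libraries. Of the 12 dendritic cell cytokines and chemokines 8 could be tested over all dendritic cells and 2 rose, where 0.405% of all genes tested rose. Cxcl9 rose from 80.0 and 62.5 CPM to 355 and 756 CPM (log2 change 2.83, SE 0.39, edgeR adjusted p = 0.0240). Cxcl10, a ligand of the same receptor, rose from 87.5 and 72.6 CPM to 417 and 397 CPM (log2 change 2.22, SE 0.23, edgeR adjusted p = 0.000745), and lost its call with the stricter gates (1.75, edgeR adjusted p = 0.0787). In cDC1 alone Cxcl10 overlapped, at 57.3, 9.90, 324 and 4.13 CPM.

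Genes that act beside the ligand were taken from a list of 12 cytokines and chemokines of NK and CD8 T cells. In NK cells 7 of the 12 could be tested, 0 rose, 1 fell and 6 did not pass, and their median log2 change was -0.05 against 0.00 for all genes tested. Ccl3, an inflammatory chemokine, fell from 748 and 757 CPM to 362 and 255 CPM, a log2 change of -1.28 (SE 0.25, edgeR adjusted p = 0.0150), and 0.075% of all genes tested fell. Both stress libraries were under 50% of either control. The call was lost in DESeq2 (adjusted p = 0.258) and in edgeR without control 2 (adjusted p = 0.171) or without stress 2 (adjusted p = 0.291). Its neighbour in function Ccl4 stood at 1802, 2205, 929 and 1220 CPM (log2 change -0.87, edgeR adjusted p = 0.0937). Ccl5, at 3775, 8062, 5864 and 5407 CPM, and Ifng, encoding interferon-gamma, at 972, 349, 378 and 1362 CPM, overlapped between groups.

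Of 12 activation genes of lymphocytes 8 could be tested in NK cells and 0 passed edgeR's test, with 4 under an unadjusted p of 0.05, as were 6.86% of all genes tested in NK cells. Their median was -0.41, with 6 changes negative and 2 positive. Nr4a1, which is induced by activating receptors, stood at 671, 943, 502 and 391 CPM (log2 change -0.84, edgeR adjusted p = 0.229). Nr4a2 and Nr4a3 had both stress libraries below both controls as well, as had 19.2% of all genes tested in NK cells. Tnfrsf9, a costimulatory receptor, had both above, as had 16.7% of genes tested, at 112, 96.8, 189 and 231 CPM (log2 change 1.06, edgeR adjusted p = 0.287). Of the cytotoxic granule genes 0 of 7 tested in NK cells passed (3 under an unadjusted p of 0.05, where 6.86% of all genes tested were), 6 changes were positive, and the median was 0.59.

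In gamma-delta cells 0 of 8 tested activation genes passed edgeR's test (4 under an unadjusted p of 0.05, where 4.36% of all genes tested were), and the median was -0.53 against 0.02 for all genes tested. Nr4a1, Nr4a2, Nr4a3, Egr1 and Cd69 had both stress libraries below both controls, as had 18.6% of all genes tested. Cd69, an early activation and retention receptor, stood at 667, 649, 378 and 347 CPM (log2 change -0.83, edgeR adjusted p = 0.670), and Nr4a1 at 427, 338, 294 and 102 CPM. Neither Ccl3 nor Ccl4 separated the groups there. In CD8 cells 0 of 8 cytokines and 0 of 10 activation genes passed, with 1 of each under an unadjusted p of 0.05, where 8.16% of all genes tested were. Ccl5 stood at 6629, 1864, 13446 and 18517 CPM in CD8 cells (log2 change 1.84, edgeR adjusted p = 0.426), with control 1 well above control 2.

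In cDC1, the cells that read XCL1, 4 of 12 dendritic cell cytokines and chemokines could be tested, 1 rose and 0 fell, where 0.168% of all genes tested rose and 0.101% fell. Cxcl9, an interferon-induced ligand of CXCR3 that attracts CD8 T and NK cells, rose from 140 and 74.3 CPM to 585 and 549 CPM, a log2 change of 2.30 (SE 0.32, edgeR adjusted p = 0.00202). The groups were far apart, and the call held without each library in turn and in DESeq2. B cells, which show the free RNA, held at most 5.01 CPM of Cxcl9. Ccl4, from the lymphocyte list, fell in cDC1 from 852 and 480 CPM to 172 and 94.9 CPM, a log2 change of -2.44 (SE 0.37, edgeR adjusted p = 0.00352), and did not pass without control 1 (edgeR adjusted p = 0.0754). B cells held 12.8 to 56.5 CPM of Ccl4, highest in control 1.

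Of 12 genes of class I antigen presentation, the function cDC1 are known for, 10 could be tested in cDC1 and 0 passed, with 2 under an unadjusted p of 0.05, as were 5.74% of all genes tested. There 8 changes were positive and the median was 0.26 against 0.00 for all genes tested. B2m, the light chain of class I, stood at 937, 852, 1439 and 1374 CPM (log2 change 0.60, edgeR adjusted p = 0.426). Of 15 genes that carry or end chemokine receptor signals 13 could be tested and 0 passed, none of them under an unadjusted p of 0.05, with a median of -0.07. Gnai2, the G-protein subunit through which chemokine receptors mainly signal, stood at 959, 936, 868 and 904 CPM.

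**Figure D5:**
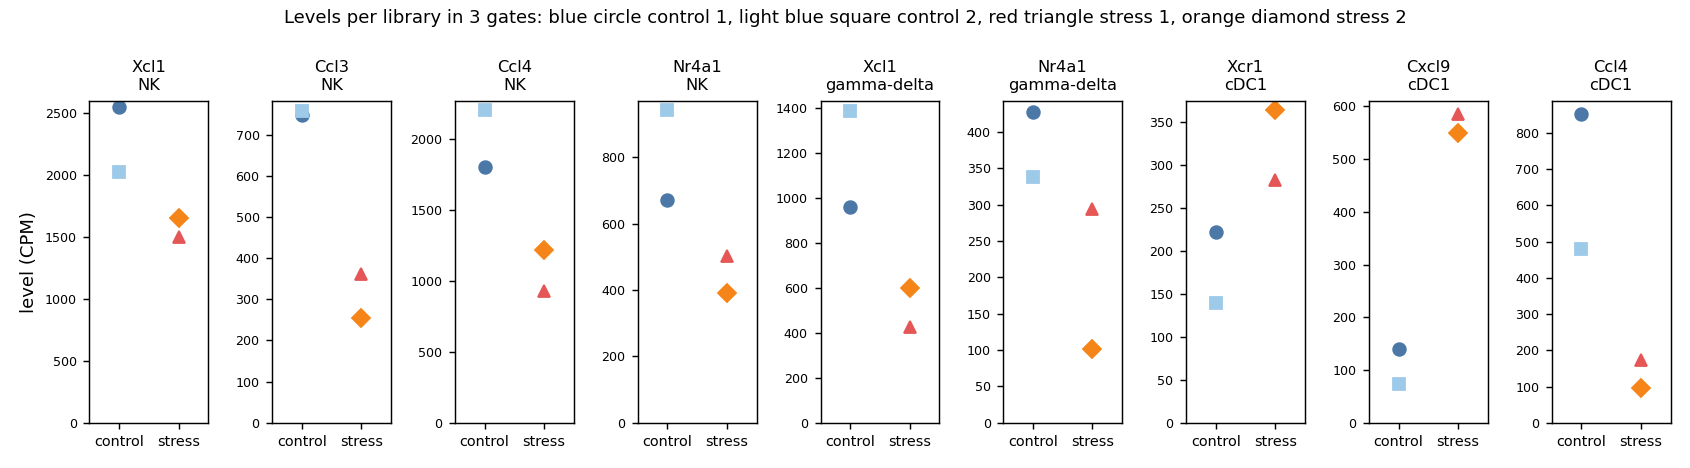
Levels (CPM, each panel with its own axis from 0) in NK cells, gamma-delta cells and cDC1, 1 symbol per library. Xcl1 and Nr4a1 are lower in both stress libraries in NK and gamma-delta cells, as are Ccl3 and Ccl4 in NK cells and Ccl4 in cDC1, while Xcr1 and Cxcl9 are higher in both stress libraries in cDC1; Ccl3 in NK cells and Cxcl9 and Ccl4 in cDC1 passed the test.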

How the data were processed

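The authors deposited UMI counts per gene and barcode for each library, made with Cell Ranger against mm10; the submitters' processing notes give version 5 and 5.0, and the matrix headers, per the file headers, software 3.1.0. The members, gates and gene lists were chosen with earlier results of these data known. Genes named are Xcl1, Xcr1, list members that passed, up to 5 others of a list by mean level, and the 5 most alike. Nr4a3, Egr1, Tnfrsf9 and the genes used to split gates or seen beside Xcl1 within cells were chosen after values were seen.

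Barcodes were filtered (at least 500 UMIs, at most 10% mitochondrial) and gated by detected transcripts, and cells meeting several gates (175) were left out. Doublets were kept in the main values and left out in an alternative: Scrublet (scanpy 1.11.5) at 0.8% per 1000 barcodes marked 0.0120 to 1.58%, so the expected share or the marked cells (53, 86, 556 and 137) were dropped there. Counts were summed per gate and library and tested with edgeR 4.0.16 (R 4.3.3; TMM, filterByExpr, robust quasi-likelihood, Benjamini-Hochberg over all genes tested), with DESeq2 1.42.0 as the alternative. The script was tested on simulated data. CPM is unnormalised beyond the sum. Shares were thinned without replacement (seed 1) to 1000 UMIs per cell, with 1500 UMIs as the alternative, in a single random draw per depth. The libraries hold 13806189, 21465320, 37010518 and 39074920 UMIs. UMI floors and intervals cover counting error only. Same-numbered libraries did not deviate together (correlations -0.12 to 0.10), so no pairing was assumed. Coordinates are 1-based.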

Additional observations from a re-analysis of the deposited data

How the results depend on the processing

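Effects are log2 changes, stress minus control, unless given in percentage points. Over 17 values and 137 repeats under other settings, 124 kept direction and side of the threshold, 9 reversed and 4 newly passed. Among the newly passed were Xcl1 in gamma-delta cells and the NK minus CD8 difference, each only without control 1 and so with a lone control. In the whole-library sums Xcl1 passed in DESeq2 (-1.32), and with single libraries left out it ran from -1.66 to -1.04 and Xcr1 from -1.06 to 0.055. Leaving out single libraries gave -0.67 to -0.35 for Xcl1 in NK cells, -1.47 to -0.86 in gamma-delta cells, -1.29 to 0.82 in CD8 cells, 0.46 to 1.22 for Xcr1 in cDC1 and -0.41 to 0.68 (-0.27 without control 2) over all dendritic cells. The NK minus CD8 difference then ran from -1.17 to 0.60 (0.19 without stress 2). The CD8 share of cells went from -5.56 to 1.60 points (1.60 without control 2), and the share of CD8 cells with an Xcl1 UMI from -18.4 to 7.25 points (7.25 without control 1). The cDC1 share with an Xcr1 UMI was -5.26 points when not thinned. The cause of these reversals was not tested. With the highest cell of each library left out, chosen after seeing the data, Xcl1 was -0.64 in NK, -0.62 in CD8 and -1.26 in gamma-delta cells and Xcr1 0.41 in cDC1.

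With the replicate block, in libraries that share only a number, the changes were -0.50 in NK, -1.16 in gamma-delta, -0.30 in CD8, 0.80 in cDC1, 0.11 over all dendritic cells, and -1.34 (Xcl1) and -0.55 (Xcr1) over all cells, and no call on Xcl1 or Xcr1 changed. Block calls were 19 against 5 in NK, 4 against 8 in cDC1 and 61 against 35 over all dendritic cells. Crossing the numbers, added after seeing the data, gave 1 call in CD8 and 29 in cDC1.

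Counts of genes past the test depended on the libraries. With single libraries left out they ran from 5 to 26 in NK (main 5), 2 to 255 in CD8 (main 0), 10 to 29 in gamma-delta (main 1), 7 to 34 in cDC1 (main 8), 80 to 289 over all dendritic cells (main 35) and 0 to 3017 over all cells (main 0). Without a filter on low counts they were 24, 159, 6, 45, 200 and 0, in DESeq2 1, 3, 3, 7, 23 and 132, and with stricter gates 11 in NK, 3 in gamma-delta and 20 over all dendritic cells. A mitochondrial limit of 25% gave 1 in CD8 and leaving out Scrublet-marked cells 4. Few cells per gate, 15 cDC1 and 32 NK in the smallest library, limit what could be detected.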

Other observations

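Over all dendritic cells Cd69, an activation and retention receptor, rose from 25.6 and 10.1 CPM to 99.8 and 96.5 CPM (log2 change 2.26, SE 0.38, edgeR adjusted p = 0.0194), and did not pass with the stricter gates (2.04, edgeR adjusted p = 0.0670). Ccl17 and Ccl22, chemokines of CCR7-bearing dendritic cells that attract CCR4-bearing T cells, stood at 140, 56.4, 13.9 and 0 CPM and at 60.3, 46.4, 37.4 and 28.1 CPM in controls 1 and 2 and stress 1 and 2, and neither passed (edgeR adjusted p = 0.357 and 0.411). Il12b, a subunit of interleukin-12, stood at 43.7, 20.2, 5.54 and 8.04 CPM (log2 change -2.37, edgeR adjusted p = 0.0856). Plasmacytoid dendritic cells numbered 0 and 7 in controls and 24 and 17 under stress. In CD8 cells the cytotoxic granule genes had 6 of 8 positive changes, a median of 1.43 and 0 past the test.

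Of the lists not described above, transcription factors of NK and CD8 T cells had 0 of 5 tested genes past edgeR's test in NK cells (1 under an unadjusted p of 0.05, where 6.86% of all genes tested were, median log2 change 0.27) and 0 of 7 in CD8 cells (3, where 8.16% of all genes tested were, median 0.30). Other chemokine receptors had 0 of 4 in cDC1 (0 under an unadjusted p of 0.05, where 5.74% of all genes tested were, median 0.02) and 0 of 7 in CD8 cells (2, median 0.34).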
